A study of Mus musculus with 12 samples.

Results

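Rab proteins are small GTPases of the Ras superfamily that mark intracellular membranes and direct vesicle traffic, and the family was read here in microglia after oxygen-glucose deprivation (OGD). Of the 55421 genes in the count table, 59 carried a Rab symbol made of a number and at most a letter and a digit, and 54 of these had at least 10 counts in at least 3 of the 12 libraries and are the members described. None of the 59 lay within 10 Mb of Slc2a5 on chromosome 4, a stretch that the choice of members left out. Outside the count rule were Rab17 (4 counts in all libraries together), Rab25 (63), Rab40b (57), Rab42 (63) and Rab9b (18). Just inside it were Rab38 (117), Rab33a (133) and Rab3c (174), each with 10 counts or more in 6 libraries.

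The libraries came from sorted mouse microglia, the resident macrophages of the brain, cultured under OGD, a model of ischaemia in which cells lack oxygen and glucose. Mice of the wild-type arm (WT) carried Cx3cr1EGFP, a fluorescent reporter in the Cx3cr1 gene, and knockout mice (KO) were Slc2a5-/-::Cx3cr1EGFP, so both arms carried the reporter and the knockout lacked the fructose transporter GLUT5 in the whole animal, not in microglia alone. Cells were taken after 6 h of OGD (WT-OGD and KO-OGD) or after 6 h of OGD and 24 h of recovery (WT-recovery and KO-recovery), with 3 libraries in each of the 4 groups. The characteristics gave the mice as male and 35 to 40 days old, while the protocol gave 30 to 45 days; no sample without OGD was analysed here, and nothing in the labels said that replicates were separate animals or cultures. For WT-recovery replicate 1 the treatment field said that there was no recovery, and the title, which said that there was, decided its group.

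A Rab protein binds membrane when loaded with GTP and is taken off it when bound to GDP. Guanine nucleotide exchange factors (GEFs) switch it on, GTPase-activating proteins (GAPs) switch it off, GDP dissociation inhibitors (GDIs) carry the inactive form through the cytosol, and effectors recruited by the active form tether, move or fuse vesicles. In microglia and other macrophages, Rab5, Rab7 and their relatives act in the maturation of phagosomes and in the supply of lysosomes, while the Rab3 and Rab27 groups are best known for regulated secretion in neurons, endocrine cells and blood cells.

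Total counts ranged from 9885259 to 45347118 per library, and the recovery libraries were the shallower ones. Slc2a5 counts were 45, 40 and 58 in WT-OGD, against 17, 4 and 17 in KO-OGD; after recovery they were 1, 2 and 0 for WT and 1, 0 and 0 for KO, so that then the gene was too low in either genotype to check the labels. Xist, made from an inactive X chromosome, had 4101 to 10232 counts in the 9 other libraries and 0 to 3 in the WT-recovery libraries, although all samples were labelled male. Any comparison that uses WT-recovery therefore also compares libraries without Xist against libraries with it, and the sex of the cells and the group cannot be told apart there. The mitochondrial share of counts was 18.4% in WT-recovery replicate 1 and 10.5% in KO-recovery replicate 2 and between 4.2% and 8.23% elsewhere. Transcripts of 6 genes of muscle, cartilage and connective tissue summed to 299.8 and 264.7 CPM (counts scaled to library size) in KO-recovery replicates 1 and 3 and to between 9.1 and 73.13 CPM in the other 10.

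Of the microglial markers, Csf1r lay between 646.6 and 995.6 CPM in the 12 libraries, while Tmem119, a marker of resting microglia, lay at 0.0295 to 0.263 CPM after OGD and at 1.55 to 2.74 CPM after recovery. Markers of other brain cells were detected and moved with genotype. After OGD the 11 astrocyte markers summed to 119.3 to 182.8 CPM for WT and 39.08 to 65.78 for KO, and after recovery to 238.8 to 271.2 and 60.05 to 116.6. After OGD 10 of the 10 tested astrocyte markers were lower in KO, and after recovery 7 were. The 12 neuron markers summed to 30.35 to 46.15 CPM for WT and 9.98 to 18.04 for KO after OGD, and to 103 to 138.7 and 38.98 to 50.99 after recovery, and 4 of 11 tested were lower in KO at each time. The 10 markers of the oligodendrocyte lineage summed to 154.2 to 163.5 CPM in the OGD libraries of both genotypes, 322.4 to 367 in WT-recovery and 258.4 to 315 in KO-recovery. In KO 2 of them were lower and 1 higher after OGD and 4 lower after recovery, while with recovery 10 were higher in WT and 8 in KO. Ntsr2 had 0 counts in KO-OGD replicate 2, Slc17a7 had 0 in the WT-recovery libraries, Nefl had 0 in 4 of the OGD libraries, Sox10 had 0 in 3 and Mog in 1 of the OGD libraries, and no other marker of these 3 lists was at 0. In bulk libraries such as these, fewer cells of a type and less RNA per cell cannot be told apart.

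By level per kilobase of annotated exon, the family was led in all 4 groups by Rab7, the Rab of late endosomes and lysosomes, followed by Rab5c, of early endosomes, and Rab1a, of traffic from the endoplasmic reticulum to the Golgi. Straight after OGD Rab7 stood at 162.8 ± 4.78 CPM per kb for WT and 168.1 ± 4.79 for KO, and after recovery at 181 ± 6.36 and 208.7 ± 15.6 (SD, n = 3, as for every ± below). The gap to Rab5c, at 100.6 ± 4.32 CPM per kb in WT-OGD and 120.3 ± 5.41 in KO-recovery, exceeded the spread in each group. The 5 highest members held between 41.9% and 46.6% of the family's summed level per kb. Summed over the 54 members, the level after OGD was 3675 ± 87.0 CPM for WT and 3712 ± 111 for KO, and after recovery 3526 ± 183 and 3395 ± 82.4. Single members differed between groups far more than this sum. At the low end, Rab3c stood at 0.01682 ± 0.003 CPM per kb in WT-OGD, and 8 members lay under the filter of 0.389 CPM in at least 1 library: Rab27b, Rab30, Rab33a, Rab36, Rab38, Rab39b, Rab3b and Rab3c. Rab38 passed that filter only through WT-OGD and Rab3c only through WT-recovery.

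**Figure D1:**
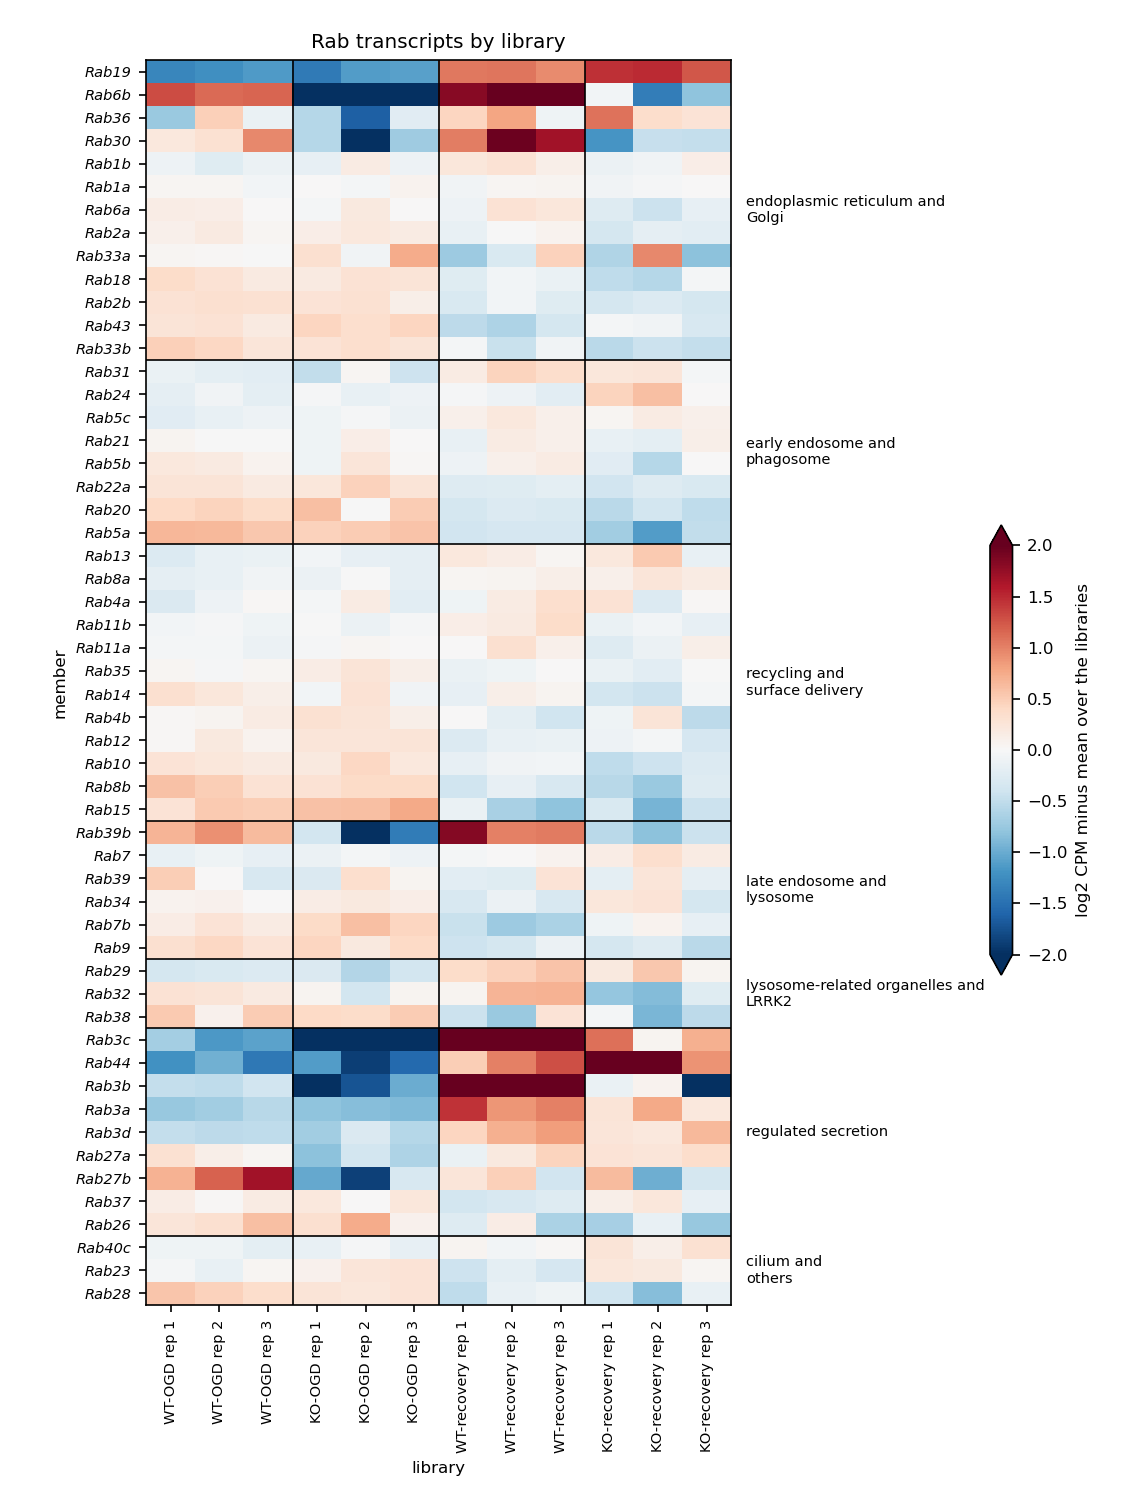
Level of each of the 54 members (rows, grouped by compartment) in each of the 12 libraries (columns), as log2 CPM minus the member's mean over the libraries; the colour scale ends at -2 and 2. Rab6b stands out as low in both KO groups, Rab3b and Rab3c as high in WT-recovery, and Rab19 and Rab44 as low in the OGD libraries and high in the recovery libraries.

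The genotype comparison after OGD asks what the loss of Slc2a5 changed in cells taken straight from the insult. Calls were made in edgeR's quasi-likelihood test at a Benjamini-Hochberg adjusted p under 0.05, with the adjustment running over 18842 genes, the 54 members included. Of the 54, 5 were lower in KO and 0 higher (9.26%), where 7.49% of all genes passed, 6.52% as lower and 0.966% as higher. The members' share was thus near the background. Their median log2 fold change was 0.005, against -0.009 over all genes tested. In the direction with 0 calls, edgeR had 2 members at an unadjusted p below 0.05 and DESeq2 called 1. The 5 lower members were Rab6b, Rab27b, Rab39b, Rab30 and Rab27a.

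Rab6b (ENSMUSG00000032549.7, chromosome 9, 103111787 to 103185276, plus strand, GRCm38) is the brain-enriched form of the Golgi Rab6, which acts in traffic from the Golgi to the endoplasmic reticulum. Its level was 7.90, 6.96 and 7.13 CPM in the WT-OGD libraries and 0.473, 0.460 and 0.656 CPM in those of KO-OGD. After recovery it was 11.2, 16.4 and 15.4 CPM in WT and 3.07, 1.23 and 1.82 CPM in KO. At each time the 3 KO libraries lay below the 3 WT libraries with no overlap. Its log2 fold change was -3.78 (SE 0.26, adjusted p = 4.03e-07) after OGD, a level 13.7-fold lower in KO, and -2.77 (SE 0.24, adjusted p = 2.63e-06) after recovery, 6.81-fold lower. The genotype difference did not itself change between the times beyond the threshold, with an interaction of 1.01 (SE 0.36, adjusted p = 0.125). With the astrocyte markers as a covariate the difference was -3.55 (adjusted p = 0.00353) after OGD and -2.55 (adjusted p = 0.00631) after recovery. Neuron markers also fell in KO, and their part in the result was not tested.

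Rab6a, the widely expressed form of the same Rab on chromosome 7 (100607410 to 100641268, plus strand), was not called after OGD. It stood at 79.85, 79.06 and 72.44 CPM in WT-OGD and 69.78, 82.9 and 72.07 CPM in KO-OGD, and the groups overlapped. The log2 fold change after OGD was -0.04 (SE 0.10, adjusted p = 0.894). After recovery it was 66.79, 87.65 and 84.39 CPM in WT and 59.94, 53.56 and 64.52 CPM in KO, and Rab6a was lower in KO by -0.43 on the log2 scale (SE 0.11, adjusted p = 0.0106), with no overlap. That call was lost without WT-recovery replicate 2, at -0.36 (adjusted p = 0.0627). Exons of Rab6a overlap Mrpl48 on the other strand, and 19% of its 50-base stretches occur in transcripts of other genes, most often Mrpl48. Its counts are uncertain, since the counting options are not given in the sources used here.

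The promoter windows of the pair, each 250 bases before to 50 bases after the start in RefSeq (GRCm38.p6), are shown because the paralogs gave such different values. Capitals mark matches, on either strand, to the 4 short motifs searched: ACGTG, the core bound by hypoxia-inducible factors, GCGTG, its common variant, CACGTG, the E-box bound by TFEB and related factors of lysosomal genes, and GGAAGT, a core of ETS factors such as PU.1. Rab6b (chr9:103111824-103112123, plus strand) held 1 GCGTG, read on the other strand as CACGC, and Rab6a (chr7:100607336-100607635, plus strand) held 1 GGAAGT, read as ACTTCC.
Rab6b: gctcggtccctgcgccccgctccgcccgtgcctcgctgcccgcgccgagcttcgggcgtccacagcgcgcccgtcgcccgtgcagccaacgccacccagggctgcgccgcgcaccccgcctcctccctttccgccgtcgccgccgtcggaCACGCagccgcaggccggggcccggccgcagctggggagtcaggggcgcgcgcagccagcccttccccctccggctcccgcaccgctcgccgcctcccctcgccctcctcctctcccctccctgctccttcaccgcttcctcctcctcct
Rab6a: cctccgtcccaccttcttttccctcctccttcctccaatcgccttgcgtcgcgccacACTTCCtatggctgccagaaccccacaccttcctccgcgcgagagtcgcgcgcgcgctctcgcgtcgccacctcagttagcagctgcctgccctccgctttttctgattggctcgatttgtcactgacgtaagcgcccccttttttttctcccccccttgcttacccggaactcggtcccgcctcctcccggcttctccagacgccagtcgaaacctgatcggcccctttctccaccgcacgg
A match is a description of the letters and not a bound site.

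The other members lower in KO after OGD were low transcripts. Rab27b, a Rab of secretory granule docking, had 32, 37 and 74 counts in WT-OGD but 10, 4 and 14 in KO-OGD, or 0.781, 1.09 and 1.54 CPM against 0.237, 0.131 and 0.383 CPM. Its log2 fold change was -2.15 (SE 0.41, adjusted p = 0.00484), and the groups did not overlap. Rab27a, its close relative in granule and exosome release, stood at 4.61, 4.07 and 3.85 CPM in WT-OGD and 2.13, 2.89 and 2.43 CPM in KO-OGD. It was lower by -0.75 on the log2 scale (SE 0.17, adjusted p = 0.0115), which was no longer called when replicate 1 of WT-OGD (-0.66, adjusted p = 0.0574) or of KO-OGD (-0.65, adjusted p = 0.0707) was left out.

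Neither Rab27 gene was lower after recovery. Rab27a then stood at 3.43, 4.27 and 5.10 CPM in WT and 4.51, 4.41 and 4.77 CPM in KO, a log2 fold change of 0.08 (SE 0.18, adjusted p = 0.791), and Rab27b at -0.17 (SE 0.53, adjusted p = 0.851). The difference between the times was not called for Rab27a, with an interaction of 0.84 (SE 0.25, adjusted p = 0.065), nor for Rab27b, with 1.97 (SE 0.68, adjusted p = 0.108).

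Rab39b (chromosome X, 75572046 to 75578231, minus strand), whose loss in humans causes an intellectual disability, and Rab30, a Golgi Rab, were called lower in KO at both times. Rab39b stood at 0.927, 1.09 and 0.894 CPM in WT-OGD and 0.450, 0.0986 and 0.219 CPM in KO-OGD, with log2 fold changes of -1.83 (SE 0.39, adjusted p = 0.00848) after OGD and -1.85 (SE 0.45, adjusted p = 0.00848) after recovery. Rab30 stood at 0.781, 0.826 and 1.31 CPM in WT-OGD and 0.450, 0.0986 and 0.410 CPM in KO-OGD, with -1.55 (SE 0.40, adjusted p = 0.0271) after OGD. In WT-recovery it was 1.37, 2.63 and 2.15 CPM and in KO-recovery 0.297, 0.490 and 0.482 CPM, with -2.33 (SE 0.46, adjusted p = 0.00203). The groups did not overlap in any of these comparisons. Exons of Rab39b overlap Gm15063 on the other strand, and 16.2% of its 50-base stretches occur in transcripts of other genes, so its counts are uncertain.

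With these few counts the calls were fragile at both times. Rab30 was not called after OGD when WT-OGD replicate 2 (-1.63, adjusted p = 0.061) or 3 (-1.25, adjusted p = 0.188) was left out, nor without KO-OGD replicate 2 (-1.16, adjusted p = 0.085). With the astrocyte markers as a covariate Rab27b, Rab30, Rab39b and Rab27a were not called, at -0.19 (adjusted p = 0.935), -0.47 (adjusted p = 0.84), -1.90 (adjusted p = 0.307) and -1.13 (adjusted p = 0.113) after OGD. The SE of Rab39b was 0.96 in that fit. The astrocyte sums of WT and KO did not overlap at either time, so the covariate and the genotype can hardly be told apart. After recovery the covariate also ended the calls of Rab39b, at -1.91 (adjusted p = 0.201), and Rab30, at -1.32 (adjusted p = 0.375). Both were lost there without KO-recovery replicates 1 and 3 together, at -2.09 (adjusted p = 0.0756) for Rab39b and -2.10 (adjusted p = 0.0586) for Rab30, and Rab39b was lost without the libraries of highest mitochondrial share, at -1.50 (adjusted p = 0.0616).

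**Figure D2:**
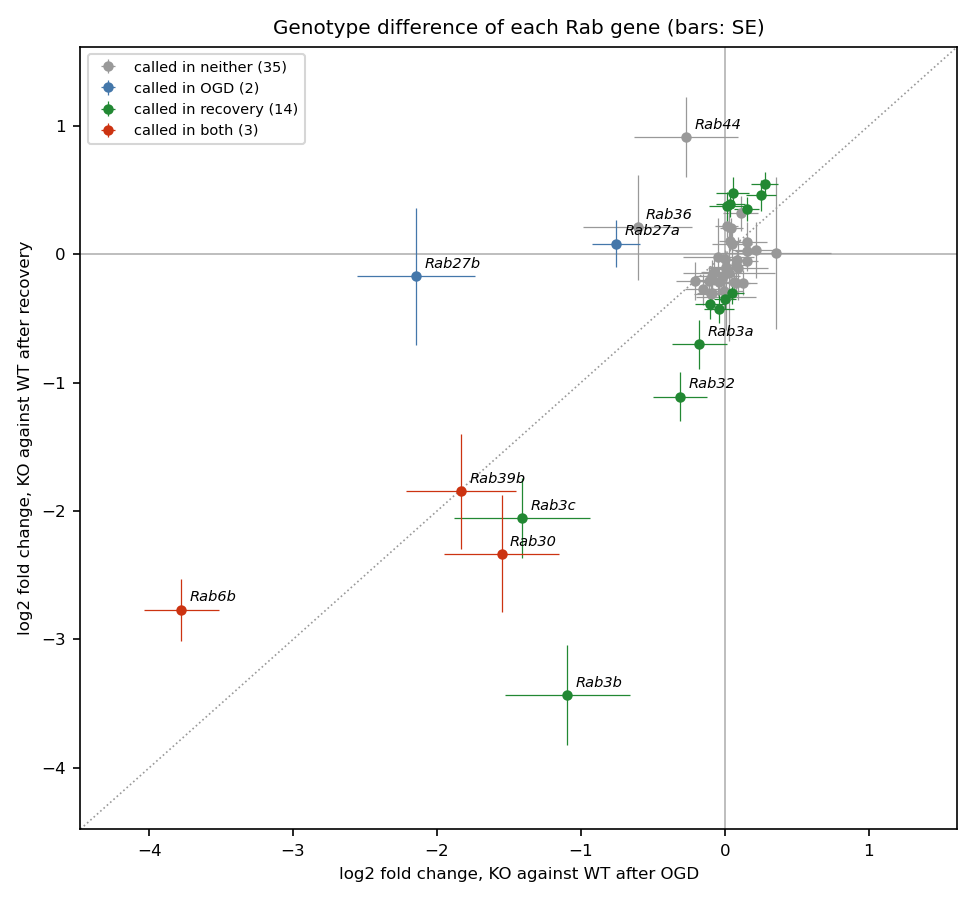
Log2 fold change of KO against WT for each of the 54 members after OGD (horizontal axis) and after recovery (vertical axis), with bars of 1 SE and colours for where the member was called; the dotted line marks equal values. Most members lie near 0 on the horizontal axis, while Rab6b, Rab30 and Rab39b are called lower at both times and Rab3b and Rab32 lie away from 0 mainly on the vertical axis.

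After recovery more members were called between the genotypes. Of the 54 members 17 were called (31.5%), 6 higher and 11 lower in KO, where 22.2% of all genes passed, 10.1% as higher and 12% as lower. The 11 lower include Rab3c, which passed the filter on low counts only through WT-recovery. Of the 46 members above that filter in all 12 libraries, 6 were higher and 7 lower. The members' median log2 fold change was -0.143, against 0.008 over all genes tested. The count rests partly on single libraries, since it was 11 without KO-recovery replicate 1 and 27 without KO-recovery replicate 3. The calls over all genes moved the same way, at 2969 of 19863 without replicate 1 and 5279 of 19837 without replicate 3. Without KO-recovery replicates 1 and 3 together, the libraries with muscle and cartilage transcripts, 8 members were higher and 10 lower, with a single KO-recovery library assumed to vary like the other groups. The comparisons after OGD and after recovery share no libraries. Of the members called after OGD, 3 were also called after recovery, 2 were not, and 14 were called after recovery alone. The share of all genes called at both times was not counted, so this overlap is a description only.

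The lowest in KO after recovery by fold was Rab3b (chromosome 4, 108879063 to 108943324, plus strand), a secretory vesicle Rab of endocrine cells and neurons. It stood at 3.54, 4.03 and 4.66 CPM in WT-recovery, from 31, 66 and 63 counts, and at 0.496, 0.572 and 0.107 CPM in KO-recovery, from 10, 7 and 2 counts. The groups lay far apart, with a log2 fold change of -3.43 (SE 0.39, adjusted p = 3.08e-05), 10.8-fold lower in KO. After OGD both genotypes were low, at 0.390, 0.384 and 0.416 CPM in WT and 0.118, 0.164 and 0.274 CPM in KO, and the difference of -1.09 (SE 0.43) was not called (adjusted p = 0.172).

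Rab3c and Rab3a, the latter the main Rab of synaptic vesicles, were also lower in KO after recovery. Rab3c stood at 2.51, 3.11 and 2.52 CPM in WT-recovery and 0.843, 0.408 and 0.643 CPM in KO-recovery, a log2 fold change of -2.06 (SE 0.31, adjusted p = 3.23e-04). Rab3c passed the filter on low counts only through WT-recovery, the group where it is high, so this call supports nothing about the genotypes. Rab3a stood at 9.36, 6.35 and 6.88 CPM and at 4.12, 5.80 and 3.96 CPM, a log2 fold change of -0.70 (SE 0.19, adjusted p = 0.0154). Neither pair of groups overlapped. Rab3d, the form of exocrine and mast cell granules, had the highest level of the 4 per kb, at 19.1 ± 2.70 CPM per kb in WT-recovery against 3.38 ± 0.723 for Rab3a. Its log2 fold change was -0.29 (SE 0.13) and it was not called (adjusted p = 0.131).

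The calls of Rab3b, Rab3c and Rab3a were lost with the astrocyte covariate, and that of Rab3a also without single libraries. With the covariate the log2 fold changes were -1.84 (SE 0.84, adjusted p = 0.162) for Rab3b, -2.20 (SE 0.83, adjusted p = 0.0914) for Rab3c and -0.35 (SE 0.38, adjusted p = 0.597) for Rab3a. Rab3d became called lower, at -0.81 (SE 0.21, adjusted p = 0.0207). Rab14, Rab18, Rab5b and Rab8b also became called lower, and Rab34 and Rab44 higher. With the covariate 7 of the 54 members were higher in KO and 9 lower, and 2352 of all 18842 genes were called. The astrocyte sums of WT and KO did not overlap, so in this fit the covariate and the genotype can hardly be told apart. Rab3a was not called without WT-recovery replicate 1 (-0.54, adjusted p = 0.0576) or KO-recovery replicate 1 (-0.63, adjusted p = 0.0673), nor without KO-recovery replicates 1 and 3 (-0.36, adjusted p = 0.363). The 12 neuron markers summed to 103 to 138.7 CPM in WT-recovery and 38.98 to 50.99 in KO-recovery. Of the 11 tested, 4 were lower in KO, with a median log2 fold change of -0.636. The markers did not all move together, since Rtn1 stood at 42.71 to 48.18 CPM in WT-recovery and 4.33 to 8.56 in KO-recovery, while Nefl stood at 0.183 to 0.456 and 0.245 to 1.82 CPM, and their part in these results was not tested. Exons of Rab3a overlap Mpv17l2 on the other strand, and those of Rab3b overlap 8030443G20Rik, so these counts are uncertain. Of their 50-base stretches, 0% for Rab3a and 7.7% for Rab3b occur in transcripts of other genes, so the uncertainty is smaller for Rab3a.

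Rab32, among the 8 highest members per kb in each group, was also lower. It acts in the making of lysosome-related organelles and, in macrophages, in the delivery of itaconate to vacuoles that hold bacteria. It stood at 124.4, 191.1 and 194.3 CPM in WT-recovery and at 70.0, 65.4 and 100.8 CPM in KO-recovery, without overlap and with a log2 fold change of -1.11 (SE 0.19, adjusted p = 0.00151), 2.16-fold lower in KO. After OGD the values were 146.5, 142.8 and 135.9 CPM in WT and 124.5, 92.6 and 125.1 CPM in KO, and the difference of -0.31 (SE 0.19) was not called (adjusted p = 0.434). The change in the gap was not called either, with an interaction of -0.80 (SE 0.27, adjusted p = 0.109). With the astrocyte covariate the gap after recovery was -1.49 (SE 0.42, adjusted p = 0.0504). Of the other Rabs that share its partners, Rab38, at 0.163 to 0.297 CPM in KO-recovery, had -0.15 (SE 0.52, adjusted p = 0.896) and Rab29 -0.20 (SE 0.11, adjusted p = 0.213).

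Also lower in KO after recovery were Rab5a, of early endosomes, with -0.39 (SE 0.12, adjusted p = 0.0261), Rab11b, of recycling endosomes, with -0.35 (SE 0.08, adjusted p = 0.00521), and Rab10, which carries cargo to the cell surface, with -0.30 (SE 0.09, adjusted p = 0.0197). The groups did not overlap in any of the 3. Rab5a was not called when 1 library was left out, for each of WT-recovery replicates 2 and 3 and KO-recovery replicates 1 and 2, at -0.39 (adjusted p = 0.0772), -0.39 (adjusted p = 0.0679), -0.41 (adjusted p = 0.058) and -0.25 (adjusted p = 0.0694). Rab10 was not called without WT-recovery replicates 2 or 3 or KO-recovery replicate 1, at -0.30, -0.28 and -0.25. Rab11b held under each single-library omission and was not called without KO-recovery replicates 1 and 3 (-0.28, adjusted p = 0.0895). Of the 50-base stretches of Rab11b, 13.6% occur in transcripts of other genes, most often Rab11b-ps2.

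Higher in KO after recovery was Rab7b (chromosome 1, 131688695 to 131715439, plus strand), which in human cells acts in transport from late endosomes to the Golgi and dampens Toll-like receptor signalling in macrophages. It stood at 132, 108.9 and 116.3 CPM in WT-recovery and 170, 190.2 and 161.4 CPM in KO-recovery, without overlap and with a log2 fold change of 0.55 (SE 0.10, adjusted p = 9.39e-04), 1.46-fold higher. After OGD the KO libraries, at 234.2, 274.6 and 242 CPM, also lay above those of WT, at 200.4, 217.5 and 201.3 CPM, but the difference of 0.28 (SE 0.09) was not called (adjusted p = 0.0977). Rab7 itself had 0.20 (SE 0.08) after recovery and was not called (adjusted p = 0.0774). With Rab6b, Rab7b was the member whose call after recovery held in each of the 21 alternatives.

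The 5 other members called higher differed by small amounts. Rab24, which acts in autophagy, stood at 50.9, 48.7 and 44.9 CPM in WT-recovery and 70.5, 79.0 and 52.2 CPM in KO-recovery, with the highest WT library close under the lowest KO library, and its log2 fold change was 0.48 (SE 0.12, adjusted p = 0.00961). Exons of Rab24 overlap Prelid1 on the other strand. Of its 50-base stretches 49.6% occur in transcripts of other genes, most often Prelid1, so the counts of Rab24 are uncertain. Rab23, a negative regulator of Hedgehog signalling, had 0.46 (SE 0.12, adjusted p = 0.0141), Rab37, a Rab of mast cell granules in mice, had 0.39 (SE 0.10, adjusted p = 0.0121), Rab19 had 0.37 (SE 0.11, adjusted p = 0.0253), and Rab43, of the Golgi, had 0.35 (SE 0.09, adjusted p = 0.0135). Of the 50-base stretches of Rab43, 74.5% occur in transcripts of other genes, most often Gm45140, so that value may belong to another gene.

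The calls of these 5 each depended on single libraries. Without WT-recovery replicate 3, Rab24 had 0.43 (adjusted p = 0.0506), Rab23 0.44 (adjusted p = 0.0513) and Rab19 0.33 (adjusted p = 0.1). Without WT-recovery replicate 2, Rab37 had 0.38 (adjusted p = 0.0512), Rab19 0.39 (adjusted p = 0.0662) and Rab43 0.28 (adjusted p = 0.0884). Without KO-recovery replicate 1, Rab23 had 0.42 (adjusted p = 0.0589), Rab19 0.34 (adjusted p = 0.0959) and Rab43 0.29 (adjusted p = 0.0703), and without KO-recovery replicate 2, Rab37 had 0.30 (adjusted p = 0.0554) and Rab19 0.32 (adjusted p = 0.0843). Without KO-recovery replicates 1 and 3 together, Rab19 had 0.46 (adjusted p = 0.0519) and Rab23 0.49 (adjusted p = 0.0655). Each kept its direction in these fits.

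Rab44, an unusually large Rab known from mast cells and bone marrow cells in mice, lay just outside the threshold. It stood at 4.45, 6.35 and 7.69 CPM in WT-recovery and 15.5, 14.1 and 5.89 CPM in KO-recovery, so that KO-recovery replicate 3 fell among the WT libraries, and the log2 fold change of 0.91 (SE 0.31) was not called (adjusted p = 0.0509). With the astrocyte covariate, which can hardly be told apart from the genotype, Rab44 was called at 2.08 (SE 0.54, adjusted p = 0.0244).

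**Figure D3:**
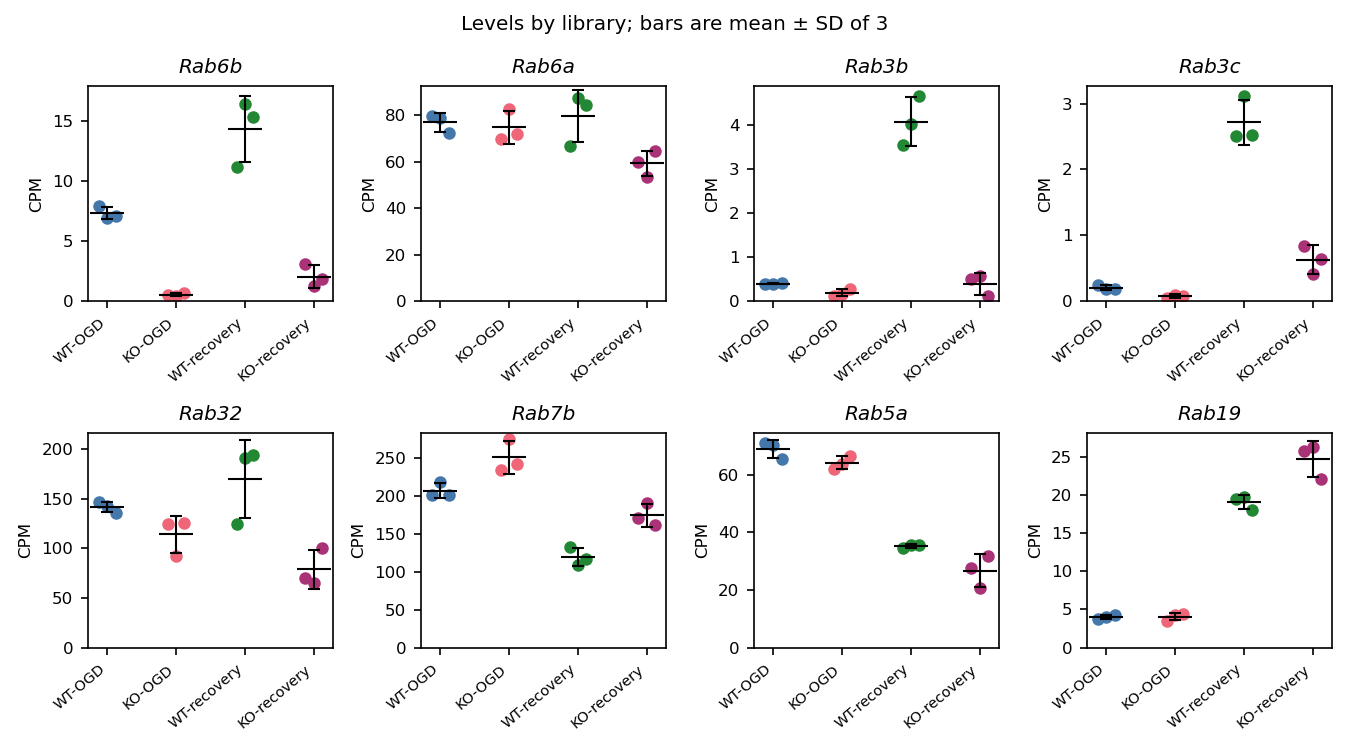
Level in CPM of 8 members in each library (points), with the mean and SD of the 3 libraries of each group (bars); each panel has its own axis from 0. Rab6b is lower in KO than in WT at both times, Rab3b and Rab3c are highest in WT-recovery, Rab5a is lower and Rab19 higher after recovery in both genotypes, and Rab6a lies between 53.56 and 87.65 CPM in all 12 libraries.

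The comparison of recovery with OGD asks what 24 h back in oxygen and glucose changed within each genotype. In WT 30 of the 54 members were called (55.6%), 14 higher and 16 lower after recovery, where 56.8% of all genes passed, 26.9% as higher and 29.9% as lower. In KO 35 were called (64.8%), 14 higher and 21 lower, where 59% of all genes passed, 29.3% as higher and 29.6% as lower. Both shares were close to the background, and the counts by compartment, of 3 to 13 members each, are a description beside these same shares. The members' median log2 fold change was -0.041 in WT, against -0.029 over all genes, and -0.088 in KO, against 0. Rab3c, which entered the test only through WT-recovery, is among the 14 higher in each genotype. Side by side, 9 members were called higher in both genotypes, 15 lower in both, 0 in opposite directions and 13 in neither. The WT and KO comparisons share no libraries. How many of all genes were called in both genotypes was not counted, so these joint numbers are a description only. The astrocyte sums of WT-OGD and WT-recovery did not overlap, so in WT the astrocyte covariate and recovery can hardly be told apart. With this covariate Rab11a became called higher and Rab27b, Rab34 and Rab4b lower in WT, and Rab37 and Rab4b lower in KO. The calls of Rab30, Rab11b, Rab8a, Rab10, Rab18 and Rab26 were lost with it in WT, and those of Rab36, Rab24, Rab31, Rab7, Rab35, Rab5b, Rab6a, Rab14 and Rab32 in KO. Without KO-recovery replicates 1 and 3 together those of Rab36, Rab40c and Rab26 were lost in KO. The comparison in WT shares the WT-recovery libraries, and that in KO the KO-recovery libraries, with the genotype comparison after recovery.

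Among Rabs of the endoplasmic reticulum and Golgi, 4 of 13 were higher and 4 lower after recovery in WT, and 3 were higher and 6 lower in KO. Rab19 (chromosome 6, 39381175 to 39390380, plus strand), a little-studied Golgi Rab, had the smallest adjusted p of the members in both genotypes. It went from 3.78, 3.98 and 4.26 CPM in WT-OGD to 19.4, 19.7 and 18.1 CPM in WT-recovery, and from 3.50, 4.31 and 4.38 CPM to 25.8, 26.2 and 22.0 CPM in KO. All recovery libraries lay above all OGD libraries, with log2 fold changes of 2.24 (SE 0.12, adjusted p = 1.12e-09) in WT and 2.60 (SE 0.12, adjusted p = 2.19e-10) in KO, 4.74-fold and 6.08-fold higher.

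Rab6b rose in both genotypes as well, by 0.98 (SE 0.20, adjusted p = 7.72e-04) in WT and 1.99 (SE 0.30, adjusted p = 4.67e-05) in KO, although its level in KO-recovery stayed below that of WT-OGD in each library. Rab36 rose in KO by 1.31 (SE 0.39, adjusted p = 0.00986), a call lost without KO-recovery replicate 1 at 0.97 (adjusted p = 0.0877), without KO-recovery replicates 1 and 3 at 1.00 (adjusted p = 0.208) and with the astrocyte covariate at 0.48 (adjusted p = 0.453). Rab18, of the endoplasmic reticulum and lipid droplets, fell by 0.42 in WT and 0.59 in KO, and the WT value with the covariate was -0.17 (adjusted p = 0.266), not called. Rab33b, of the Golgi and autophagy, fell by 0.57 and 0.78, and Rab43 fell by 0.74 and 0.54. Rab1a, with 279.8 ± 9.57 CPM in WT-OGD and 280 ± 12.5 in WT-recovery, had 0.00 (SE 0.07, 95% interval -0.143 to 0.145) in WT and -0.04 (SE 0.07, interval -0.184 to 0.104) in KO, and was called in none of the 5 comparisons.

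Among Rabs of early endosomes and phagosomes, 2 of 8 were higher and 3 lower in WT, and 2 were higher and 4 lower in KO, and the isoforms of Rab5 went different ways. Rab5a (chromosome 17, 53479234 to 53507680, plus strand), which drives fusion of early endosomes, stood at 71.1, 70.5 and 65.4 CPM in WT-OGD and 34.5, 35.7 and 35.5 CPM in WT-recovery, and at 62.2, 63.9 and 66.6 CPM in KO-OGD and 27.7, 20.7 and 31.9 CPM in KO-recovery. The recovery libraries all lay below the OGD libraries, and the log2 fold changes were -0.97 (SE 0.11, adjusted p = 3.37e-06) in WT and -1.25 (SE 0.11, adjusted p = 1.98e-07) in KO, 1.96-fold and 2.38-fold lower. Rab5c, the more abundant isoform per kb, was instead higher after recovery in WT, by 0.30 (SE 0.08, adjusted p = 0.00323), and had 0.17 (SE 0.07) in KO, not called (adjusted p = 0.0602). Rab5b had -0.09 (SE 0.12, adjusted p = 0.554) in WT and -0.31 (SE 0.12, adjusted p = 0.046) in KO, a call lost in 14 alternatives, 7 of which left out 1 library: any of the WT-OGD libraries (each -0.30), KO-OGD replicates 2 (-0.20) or 3 (-0.33), or KO-recovery replicates 1 (-0.32) or 2 (-0.19). Eea1, the tether that Rab5 recruits to early endosomes, fell by 1.11 in WT (adjusted p = 3.54e-07) and 1.06 in KO (adjusted p = 4.09e-07).

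Rab20, which acts in phagosome maturation and whose transcript is induced by hypoxia in other cells, stood at 23.3, 24.0 and 22.7 CPM in WT-OGD and 13.8, 14.5 and 14.3 CPM in WT-recovery, and at 26.8, 17.4 and 24.9 CPM and 12.1, 13.6 and 12.4 CPM in KO. The recovery libraries were lower in both genotypes with no overlap, at -0.71 (SE 0.13, adjusted p = 3.00e-04) in WT and -0.87 (SE 0.13, adjusted p = 4.23e-05) in KO. Of the 50-base stretches of Rab20, 22.9% occur in transcripts of other genes, most often E230013L22Rik on the other strand. Rab22a, of endosomal recycling, fell by 0.46 in WT and 0.63 in KO, while Rab31, its close relative, rose by 0.50 in WT and 0.42 in KO, where the call was lost without KO-OGD replicate 1 at 0.32.

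The promoter windows of Rab5a (chr17:53478984-53479283, plus strand) and Rab20 (chr8:11478591-11478890, minus strand) are shown as examples of a window with the E-box CACGTG from members lower after recovery in both genotypes. The E-box did not go with 1 direction. It was found in windows of 6 members, of which Rab24 and Rab27a were called higher after recovery in KO and not called in WT, and Rab21 and Rab23 were called in neither genotype. Capitals again mark the 4 motifs. Rab5a held 2 CACGTG, 5 ACGTG and 2 GCGTG, and Rab20 held 1 CACGTG, 2 ACGTG and 3 GCGTG, where each CACGTG counts as an ACGTG on each strand.
Rab5a: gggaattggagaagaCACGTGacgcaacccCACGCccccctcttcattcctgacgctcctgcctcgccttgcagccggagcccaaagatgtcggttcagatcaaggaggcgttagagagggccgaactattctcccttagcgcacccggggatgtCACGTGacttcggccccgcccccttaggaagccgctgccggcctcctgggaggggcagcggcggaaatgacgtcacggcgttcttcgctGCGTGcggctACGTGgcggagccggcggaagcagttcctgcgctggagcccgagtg
Rab20: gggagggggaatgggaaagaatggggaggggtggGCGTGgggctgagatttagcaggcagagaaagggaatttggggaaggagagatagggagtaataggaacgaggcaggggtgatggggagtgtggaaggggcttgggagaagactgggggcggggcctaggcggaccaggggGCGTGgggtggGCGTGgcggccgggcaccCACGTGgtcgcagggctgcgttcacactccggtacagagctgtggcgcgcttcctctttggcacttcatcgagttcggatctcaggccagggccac
Promoter windows were found for 43 of the 54 members, 55 windows of 300 bases in all, with several starts for some genes. ACGTG was found in 20% of the members' windows and in 19.6% of 32851 windows of all genes, GCGTG in 38.2% and 32.4%, CACGTG in 10.9% and 7.15%, and GGAAGT in 29.1% and 23.8%.

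Among Rabs of recycling and delivery to the surface, 2 of 12 were higher and 4 lower in WT, and 1 was higher and 6 lower in KO. Rab15, which slows recycling of receptors, stood at 4.54, 5.40 and 5.26 CPM in WT-OGD and 3.43, 2.38 and 2.15 CPM in WT-recovery, and at 5.63, 5.69 and 6.35 CPM and 3.02, 1.96 and 2.78 CPM in KO. It was lower after recovery without overlap, at -0.97 (SE 0.20, adjusted p = 5.87e-04) in WT and -1.16 (SE 0.19, adjusted p = 7.59e-05) in KO. Rab8b fell from 229.5 ± 23.5 to 135.9 ± 11.9 CPM in WT, by 0.75 on the log2 scale, and from 212.4 ± 7.45 to 117.4 ± 20.2 CPM in KO, by 0.85. Its paralog Rab8a went the other way, with 0.20 in WT (adjusted p = 0.0304) and 0.27 in KO (adjusted p = 0.00582). The WT call of Rab8a was lost when 1 library was left out, for each of WT-OGD replicates 1 and 2 and WT-recovery replicates 2 and 3, with values of 0.19, 0.21, 0.21 and 0.17. Rab11a, the landmark of recycling endosomes, had 0.22 (adjusted p = 0.0726) in WT and -0.09 (adjusted p = 0.446) in KO. Rab14, which links recycling endosomes and the Golgi, had -0.22 (adjusted p = 0.145) in WT and -0.34 (adjusted p = 0.0274) in KO, and the latter call was lost without KO-OGD replicate 2 (-0.20), KO-recovery replicate 1 (-0.30) or KO-recovery replicate 2 (-0.28).

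Of the 6 late endosomal and lysosomal Rabs, 2 were lower in WT, and 2 were lower and 1 higher in KO. Rab7b fell by 0.80 in WT (SE 0.10, adjusted p = 4.98e-06) and by 0.53 in KO (SE 0.09, adjusted p = 2.06e-04), and Rab9, which returns mannose 6-phosphate receptors to the Golgi, fell by 0.62 and 0.73. Rab7 was higher after recovery in KO, by 0.31 (SE 0.08, adjusted p = 0.00338), and had 0.15 (SE 0.08, adjusted p = 0.113) in WT. Of the 50-base stretches of Rab7, 12.7% occur in transcripts of other genes, most often the copy Rab7-ps1.

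Rab29, which recruits the Parkinson's disease kinase LRRK2 to membranes, rose in both genotypes, from 31.7 ± 0.861 to 54.8 ± 3.84 CPM in WT and from 29.7 ± 3.04 to 47.8 ± 8.39 CPM in KO. The log2 fold changes were 0.79 (SE 0.11, adjusted p = 2.60e-05) and 0.68 (SE 0.11, adjusted p = 9.81e-05). Lrrk2 itself rose from 2.42 ± 0.253 to 8.32 ± 0.917 CPM in WT, by 1.78 on the log2 scale (adjusted p = 1.26e-05), and from 1.18 ± 0.309 to 6.21 ± 2.35 CPM in KO, by 2.39 (adjusted p = 1.16e-06). It was lower in KO after OGD, at -1.02 (adjusted p = 0.0211). Rab32 went different ways by value, with 0.27 (SE 0.19, adjusted p = 0.246) in WT and -0.53 (SE 0.19, adjusted p = 0.0283) in KO. The KO call was lost when 1 library was left out, for each of KO-OGD replicates 1 and 3 and KO-recovery replicates 1 and 2, at -0.47, -0.46, -0.46 and -0.44.

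Of the 9 secretory Rabs 5 were higher and 2 lower after recovery in WT, and 5 were higher and 1 lower in KO, where 26.9% and 29.3% of all genes were higher. All 4 Rab3 genes rose in WT. Rab3c went from 0.244, 0.177 and 0.187 CPM to 2.51, 3.11 and 2.52 CPM, a log2 fold change of 3.72 (SE 0.32, adjusted p = 1.72e-07). It entered the test only because it was high in WT-recovery. Rab3b rose by 3.35 (SE 0.34, adjusted p = 8.24e-07), Rab3a by 1.78 (SE 0.19, adjusted p = 1.48e-06) and Rab3d by 1.18 (SE 0.13, adjusted p = 3.28e-06). In none of these did the WT-OGD and WT-recovery libraries overlap.

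In KO the rises were 3.07 for Rab3c (SE 0.44, adjusted p = 2.75e-05), from 2, 3 and 3 counts to 17, 5 and 12, 1.25 for Rab3a (SE 0.19, adjusted p = 5.53e-05) and 0.89 for Rab3d (SE 0.13, adjusted p = 4.16e-05). Rab3b had 1.01 (SE 0.51) in KO and was not called (adjusted p = 0.0998), and its KO libraries overlapped. It was the only member called for a difference between the genotypes in this change, with an interaction of -2.34 (SE 0.62, adjusted p = 0.0415), or 1.85% of the 54 members, all lower, where 5.25% of all genes passed and 2.36% as lower. That call was lost in 12 of 20 alternatives, 9 of which left out 1 library: any of the WT-OGD or WT-recovery libraries, KO-OGD replicates 2 or 3 or KO-recovery replicate 1, with values from -2.66 to -1.94 and adjusted p from 0.0501 to 0.155. Neuron markers rose with recovery too, 9 of 11 tested being higher in WT and 9 in KO. In the interaction 0 of the 11 were called, with a median of -0.001. The part of neuron markers in the Rab3 results was not tested.

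Rab44 (chromosome 17, 29114145 to 29148980, plus strand) went from 1.37, 1.62 and 1.16 CPM in WT-OGD to 4.45, 6.35 and 7.69 CPM in WT-recovery, and from 1.44, 0.854 and 1.07 CPM to 15.5, 14.1 and 5.89 CPM in KO. The groups did not overlap, and the log2 fold changes were 2.18 (SE 0.34, adjusted p = 1.00e-04) and 3.37 (SE 0.34, adjusted p = 1.57e-06). Markers of monocytes, another cell of the blood lineage, summed to 55.47 to 167.8 CPM after OGD, 480.7 to 802.6 in WT-recovery and 1069 to 1270 in KO-recovery, with 3 of 3 tested higher after recovery in each genotype. Most of each sum was Fn1, at 396.7 to 731.6 CPM in WT-recovery and 968.6 to 1201 in KO-recovery, while Ccr2 stood at 25.56 to 30 and 22.68 to 32.08 CPM, Chil3 at 45.41 to 57.7 and 39.9 to 67.8 CPM, and Ly6c2 and Plac8 at 0 to 0.366 CPM. The part of these genes was not tested. Rab27a rose in KO alone by call, at 0.88 (SE 0.18, adjusted p = 5.02e-04), with 0.05 (SE 0.17, adjusted p = 0.826) in WT and an interaction that was not called. Rab37 fell in WT by 0.43 (SE 0.10, adjusted p = 0.00196) and had -0.08 in KO (adjusted p = 0.522). Rab26, of secretory granules, fell by 0.59 in WT (adjusted p = 0.0412) and by 0.93 in KO (adjusted p = 0.003), the WT call being lost when 1 library was left out, for each of WT-OGD replicates 2 and 3, KO-OGD replicate 1 and WT-recovery replicates 1 and 3, at -0.62, -0.47, -0.60, -0.58 and -0.42.

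**Figure D4:**
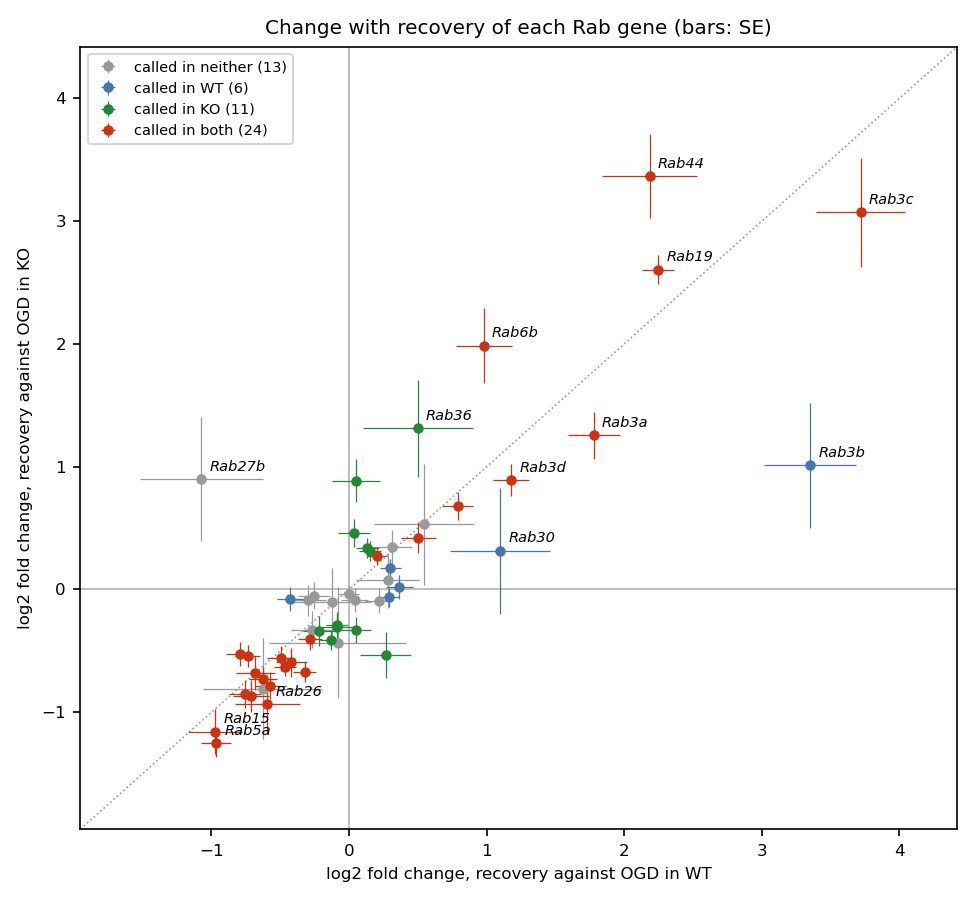
Log2 fold change of recovery against OGD for each of the 54 members in WT (horizontal axis) and in KO (vertical axis), with bars of 1 SE and colours for where the member was called; the dotted line marks equal values. Members lie along the line in both genotypes, with Rab3b below it at 3.35 in WT and 1.01 in KO and Rab44 above it at 2.18 and 3.37.

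The proteins that switch and use Rabs were called more often for recovery than for genotype, as all genes were. The shares of all genes called for recovery were 26.9% higher and 29.9% lower in WT and 29.3% and 29.6% in KO. Of 33 GEFs tested, 7 were higher and 18 lower after recovery in WT and 9 higher and 17 lower in KO, with medians of -0.316 and -0.236 on the log2 scale. Rin2, a GEF of Rab5, rose by 1.73 in WT (adjusted p = 1.12e-06) and 1.93 in KO (adjusted p = 3.57e-07), while Rin1, another, fell by 1.40 (adjusted p = 0.00257) and 1.04 (adjusted p = 0.0194). Rab3il1, a GEF of Rab3 and Rab8, rose by 1.68 (adjusted p = 5.54e-08) and 2.04 (adjusted p = 6.58e-09). Of 33 GAPs tested, 7 were higher and 18 lower in WT and 7 higher and 19 lower in KO, with medians of -0.252 and -0.311. Tbc1d15, a GAP of Rab7, fell by 1.41 in WT (adjusted p = 2.91e-08) and 1.42 in KO (adjusted p = 2.26e-08).

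By genotype the counts are read against 7.49% of all genes called after OGD and 22.2% after recovery. After OGD 2 GEFs and 1 GAP were lower in KO and 0 higher by edgeR, by DESeq2 or at an unadjusted p, namely Dennd2d (-0.45, adjusted p = 0.0171), Dennd5b (-1.52, adjusted p = 0.0401) and Sgsm1 (-1.68, adjusted p = 0.0215), all in the direction of most calls in that comparison. After recovery 3 GEFs were higher and 1 lower, and 3 GAPs higher and 2 lower. Dennd1c, a GEF of Rab35, was the highest of the GEFs at 0.76 (adjusted p = 0.0044), and Dennd5b, a GEF reported for Rab39 in human cells, was lower by -1.45 (adjusted p = 0.021). Rab3gap2, a subunit of the complex that acts on Rab3 and Rab18, was higher by 0.42 (adjusted p = 8.62e-04). Of the 8 escort, prenylation and GDI genes, 0 were called after OGD, by edgeR, DESeq2 or at an unadjusted p, and Gdi2 alone after recovery, at -0.32 (adjusted p = 0.0134).

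Of the effectors, 0 of 15 at early and recycling endosomes, 0 of 12 at late endosomes and lysosomes, 0 of 8 at the Golgi and 2 of 14 tested in secretion, both lower, were called by genotype after OGD in edgeR. At an unadjusted p below 0.05 these groups had 0, 2, 2 and 4, and DESeq2 called 0, 0, 1 and 2. With 7.49% of all genes called, lists of this length can have 0 calls without standing apart from other genes. After recovery, where 22.2% of all genes were called, edgeR called 2 higher at early and recycling endosomes, 1 lower at the Golgi and, in secretion, 2 higher and 2 lower. At late endosomes and lysosomes it called 0 after recovery as well, with 1 at an unadjusted p below 0.05 and 0 by DESeq2. Mlph, which links Rab27a to a myosin motor in pigment cells, was lower in KO after recovery, at 1.48 ± 0.575 CPM against 5.46 ± 1.47 CPM in WT, a log2 fold change of -1.86 (adjusted p = 3.42e-04), with an interaction of -1.59 (adjusted p = 0.0202). Unc13d, which primes Rab27-bearing granules for release, was higher by 0.61 (adjusted p = 0.00126). Rilpl2, an effector of phosphorylated Rab8 and Rab10, fell with recovery by 1.64 in WT (adjusted p = 2.93e-08) and 1.93 in KO (adjusted p = 4.39e-09).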

How the data were processed

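The values the authors deposited are raw counts, whole numbers without normalization. The submitters' processing notes name GRCm38, HISAT2 and featureCounts, but versions, strand and multi-mapping options are not given in the sources used here. Members that overlap or resemble another gene are therefore uncertain, also where this is not repeated beside their values. Exons of 20 members overlap another gene. They are Rab10, Rab11a, Rab11b, Rab18, Rab20, Rab22a, Rab24, Rab26, Rab27a, Rab2b, Rab33b, Rab39b, Rab3a, Rab3b, Rab40c, Rab43, Rab4b, Rab5a, Rab6a and Rab7. Among them 10 share at least 10% of their 50-base stretches with other genes: Rab11b, Rab20, Rab24, Rab2b, Rab33b, Rab39b, Rab43, Rab4b, Rab6a and Rab7. Per the labels, microglia were sorted before culture and libraries came from a stranded total RNA kit, although the molecule field named polyA RNA.

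Symbols, coordinates and exon lengths came from GENCODE release 21 for the mouse (M21), which matched 55240 of 55421 identifiers, and promoters from RefSeq. With edgeR 4.0.16 in R 4.3.3, filterByExpr left 18842 genes (its threshold lay at 0.389 CPM), and counts were scaled by TMM factors and fitted by robust quasi-likelihood to all 12 libraries with 1 mean per group. Calls were made at 0.05 after Benjamini-Hochberg adjustment over these genes. Each SE is the size of the fold change (log2) over the square root of F, and CPM use TMM-adjusted library sizes. Biological variation over all genes had a common coefficient of 0.119. The script was tested on simulated data. Replicate pairs differed by more than sampling noise (chi-square per degree of freedom 6.66 to 60.2), so each library counted as 1 sample, and the spread that the p-values measure may be technical. Depth was lowest after recovery, where members with few counts have the widest error.

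The alternatives were DESeq2 1.42.0 and its size factors, no filter, only the groups compared, a replicate block, each library left out in turn, the 2 libraries with the highest mitochondrial share left out, counts thinned to the smallest library, the astrocyte markers as a covariate and, chosen after seeing the data, KO-recovery replicates 1 and 3 left out. Named members were the 5 highest and 5 lowest called in each contrast and 8 landmarks (Rab1a, Rab5a, Rab6a, Rab7, Rab11a, Rab14, Rab20 and Rab32); others were named after their values were seen. The members, roles and pathway lists were chosen with earlier results of these data known. The likeness of members' patterns was not computed.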

Additional observations from a re-analysis of the deposited data

Results flagged for a closer look

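In the main edgeR fit the change of Rab3b with recovery differed between the genotypes by the interaction term, a test of the difference itself. Its level rose from 0.397 ± 0.0169 to 4.08 ± 0.562 CPM in WT (SD, n = 3) and had 0.185 ± 0.0797 and 0.392 ± 0.249 CPM in KO, and the KO change less the WT change was -2.34 on the log2 scale (SE 0.62, adjusted p = 0.0415). The call of Rab3b was lost in 12 of 20 alternatives, and 1.85% of the members were called where 5.25% of all genes passed. The 3 WT-recovery libraries of this gene had 31, 66 and 63 counts, and no library of the other groups had more than 20. The WT-recovery group is also the one without Xist. Marker sums of neurons (103 to 138.7 CPM), astrocytes (238.8 to 271.2) and the oligodendrocyte lineage (322.4 to 367) were highest in it. In the interaction 0 of 11 tested neuron markers were called, with a median of -0.001 and 1 at an unadjusted p below 0.05. Of the 10 oligodendrocyte markers 2 were lower and 0 higher (median -0.879), and of 10 tested astrocyte markers 1 was higher and 0 lower (median 0.244). The part of these markers in the result was not tested.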

How the results depend on the processing

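Of the members called, 1 of 5 kept its call in all 21 alternatives after OGD (Rab6b), 2 of 17 by genotype after recovery (Rab7b and Rab6b), 23 of 30 for recovery in WT and 23 of 35 for recovery in KO. After OGD the 5 calls became 2 with thinned counts and 1 with the astrocyte covariate, and 4 to 5 without single libraries. Over all genes the 1411 calls of 18842 became 652 of 16273 with thinned counts and 220 of 18842 with the covariate. Without single libraries they ranged from 524 of 18724 to 1742 of 19837. The 17 calls by genotype after recovery became 11 to 27 without single libraries, the 30 for recovery in WT 26 to 35 and the 35 in KO 31 to 38. Over all genes these comparisons had 4175, 10701 and 11113 calls. Without single libraries the all-gene calls were 2653 to 5279, 9512 to 11452 and 9979 to 11717. The single call of the interaction (989 of 18842 over all genes) became 4 with DESeq2 (1542 of 35676) and 5 with no filter (1980 of 35676). It became 4 without the libraries of highest mitochondrial share (1123 of 20080) and 2 with the astrocyte covariate (1409 of 18842). With thinned counts it was 0 (600 of 16273). Without single libraries it was 0 to 8, with 8 without KO-recovery replicate 3 (1770 of 19837 over all genes). With the replicate block the interaction had 0 calls, and the block moved no other count of members by over 1.5 times; same-numbered libraries did not deviate together (correlations from -0.228 to 0.156), so the numbers were not taken as pairs. The recovery change of Rab14 in KO turned from -0.34 to 0.00 (0.0035, adjusted p = 0.985) with the astrocyte covariate; the cause was not tested. Rab27b after OGD could not be tested with thinned counts, nor Rab3c for recovery in KO with only the groups compared, because they fell under the filter, and the fit with only the groups compared has no interaction. The median of all genes moved by at most 0.076 from 0 in any setting (log2), with no filter in WT. Depth limits the members under 1 CPM most.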
